A study of Rattus norvegicus with 3 samples.

Results

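The genes described here are 9 caspase and death receptor pathway genes of the rat: Fas, Tnfrsf1a, Fadd, Casp8, Casp9, Apaf1, Xiap, Diablo and Perp. They were chosen by name, and each was found on the array through the probes whose accession the RefSeq annotation assigns to it. All 9 genes of the list were on the array, of 16654 genes that could be named in this way, and they were read from 14 probes on 24 spots. In 7 of them every probe was well above background on all 3 arrays, a state that 11250 of the named genes shared and that is called detected below.

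RNA was taken from the cerebellar cortex of male Wistar rats, 9 weeks old, 2 days after surgery, to look for genes that respond in the cerebellum to an infarct of the opposite cerebral hemisphere. In the MCAO group a coated nylon filament closed the right middle cerebral artery for a time and was then withdrawn, under sevoflurane in nitrous oxide and oxygen, and only rats with a neurological score in a set range were used. Left (contralateral) and right (ipsilateral) cerebellar cortex came from the same 4 MCAO rats, whereas the control array carried left cortex of 4 sham rats, in which the right carotid artery was exposed and not opened. All rats were killed with pentobarbital, the tissue of 4 rats was pooled for each array, and 1 array was hybridised for each of the 3 groups, all on 1 slide. There are therefore no replicates and no tests. The ratio of the ipsilateral to the control array also compares a right with a left cortex, so that side and surgery cannot be told apart there, and both ratios to the control group share the control array.

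Death receptors are membrane proteins that, once bound by ligands of the tumour necrosis factor family, gather adaptor proteins and initiator caspases on their inner face. A separate route starts at the mitochondrion, where released cytochrome c binds Apaf1 and the complex activates caspase 9. Both routes end in executioner caspases, which inhibitor of apoptosis proteins such as Xiap restrain. These proteins act mainly through binding and cleavage, so the amount of an mRNA is not a measure of caspase activity.

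Detection separated the genes clearly. The scanner software calls a spot well above background when its background-subtracted signal stands out from the error of the background. Of 58717 spots that are not controls, 72.3% passed on the contralateral array, 73.3% on the ipsilateral and 73.7% on the control array. On the log2 scale described below, the dimmest spots that passed stood at 3.19, 3.63 and 3.12 in the same order. Tnfrsf1a, Casp8, Casp9, Apaf1, Xiap, Diablo and Perp passed with every probe on every array. Fadd and 1 of the 2 probes of Fas passed on the control array only, and the other Fas probe passed on none.

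**Figure D1:**
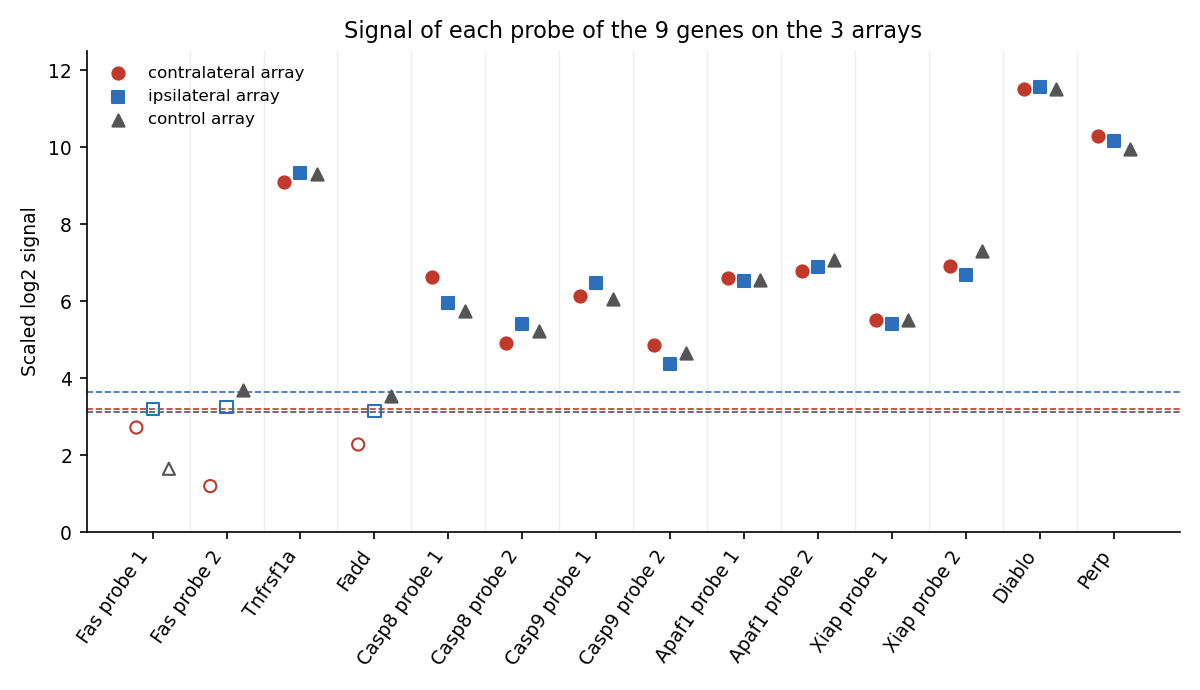
Scaled log2 signal (vertical axis) of the 14 probes of the 9 genes (horizontal axis) on the contralateral, ipsilateral and control arrays, with filled symbols for signals well above background, open symbols for the others, and dashed lines at the dimmest spot of each array that was well above background. The probes of Fas and Fadd lie near or under these lines, and the probes of the other 7 genes lie above them on all 3 arrays.

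Signals are given on the log2 scale after each array was shifted to a common 75th percentile, and a ratio is a difference of such values. The error beside a ratio comes from the error the scanner software gives for each spot, and covers neither rats nor hybridisations. It was about 0.20 for bright probes. The 3 arrays differed in brightness, with a 75th percentile of 2103 on the contralateral, 1614 on the ipsilateral and 2336 on the control array. Without scaling, the median log2 ratio of the 11250 detected genes was -0.14 for contralateral over control, -0.52 for ipsilateral over control and 0.38 for contralateral over ipsilateral. When 8 spike-in probes set the scale, it was -0.078, -0.23 and 0.16. With the 75th percentile it was 0.0078, 0.015 and -0.0011, so that a ratio given here is close to one relative to the median of all genes. Sign changes under the other scalings are given with the ratios of the 9 genes, and a ratio at the background is no direction.

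The promoter table used here, from RefSeq and the GRCr8 assembly, gives the stretch before the start of 7 of the 9 genes. Casp8 and Xiap were not matched in it. The 250 bases before the start were searched on both strands for the GC box GGGCGG, for CCAAT, for TATAAA and for the p53 half-site. A GC box was present in 6 of the 7 genes, in Fas, Fadd, Diablo and Perp with 1 copy, in Apaf1 with 2 and in Casp9 with 3, and was absent from Tnfrsf1a. It was present in 30.5% of all 33469 promoters of the same length. CCAAT was found in Diablo, with 2 copies, and in 11385 of all promoters. TATAAA and the p53 half-site were in none of the 7, and in 12.9% and 6.64% of all promoters. CG dinucleotides numbered 39 in Apaf1, 24 in Fadd, 22 in Perp, 20 in Casp9, 11 in Tnfrsf1a, 6 in Fas and 4 in Diablo, against a median of 5. These matches describe the letters in this window and are not binding sites.

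The stretches of 3 genes are shown, with GC boxes in capitals: Fadd, which was detected on the control array only, Perp, which had the most spots, and Casp9, which had the most GC boxes. That of Fadd lies at chr1:209174930-209175179 on the minus strand, that of Casp9 at chr5:159391824-159392073 on the plus strand and that of Perp at chr1:15361534-15361783 on the plus strand of GRCr8, each 5′ to 3′ and next to the start of the gene.
Fadd: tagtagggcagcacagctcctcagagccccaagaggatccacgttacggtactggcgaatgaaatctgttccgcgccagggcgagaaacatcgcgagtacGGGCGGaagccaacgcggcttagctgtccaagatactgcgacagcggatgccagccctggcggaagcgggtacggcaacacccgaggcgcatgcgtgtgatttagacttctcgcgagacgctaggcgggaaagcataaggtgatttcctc
Casp9: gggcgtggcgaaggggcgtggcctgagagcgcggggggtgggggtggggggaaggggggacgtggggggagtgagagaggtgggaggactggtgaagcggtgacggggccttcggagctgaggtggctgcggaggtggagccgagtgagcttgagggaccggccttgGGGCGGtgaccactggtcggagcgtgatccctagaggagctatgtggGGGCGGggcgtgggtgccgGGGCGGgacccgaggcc
Perp: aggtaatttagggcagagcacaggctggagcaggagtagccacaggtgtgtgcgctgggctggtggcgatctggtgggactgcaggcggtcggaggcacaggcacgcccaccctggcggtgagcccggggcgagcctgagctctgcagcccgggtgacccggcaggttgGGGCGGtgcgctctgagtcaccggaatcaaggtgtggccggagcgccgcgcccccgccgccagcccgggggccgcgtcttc
The bases G and C made up 59.2% of the stretch of Fadd, 73.2% of that of Casp9 and 71.6% of that of Perp, against a median of 51.2% over all promoters.

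Of the receptors, Tnfrsf1a was well detected and Fas was not. Tnfrsf1a, the main receptor of tumour necrosis factor, had log2 signals of 9.10 on the contralateral, 9.32 on the ipsilateral and 9.31 on the control array. The contralateral array was thus the lowest, and the other arrays hardly differed. The log2 ratio to the control group was -0.21 with a scanner error of 0.20 contralaterally and 0.017 ipsilaterally, the latter negative under no scaling, spike-in scaling or the deposited table. Between the sides it was -0.23 with an error of 0.20, and it was positive without scaling. Relative to the median of all genes, the contralateral ratio lay between -0.22 and -0.19 under the 7 scalings, the main one included. No scaling, the median, the spike-in probes and the deposited table each move all genes of an array alike. They therefore give the same relative value as the main scaling. Here and for the genes below, only quantile normalization and normexp could widen such a range. In bulk tissue, fewer cells of a type and less RNA per cell cannot be told apart.

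Fas, the receptor of Fas ligand, gave signals at the background. Its probe 1 had processed signals of 6.97 on the contralateral, 7.48 on the ipsilateral and 3.68 on the control array, none well above background. Its probe 2 had 2.43, 7.69 and 15.1, and only the last was well above background. For comparison, the medians of 274 negative control spots were 2.28, 2.40 and 2.43. On probe 2 the control signal stood 1.42-fold above the dimmest detected spot of the contralateral array and 1.04-fold above that of the ipsilateral array. That spot was used since a signal under the background has no level. These folds leave out the scanner error and are not lower limits. They belong to the main scaling: with normexp the log2 ratios of probe 2 to the control array were -0.14 contralaterally and 0.29 ipsilaterally. The mean of both probes gave a log2 ratio of -1.27 between the sides with an error of 1.11, negative under every scaling tried, and the probes pointed in opposite directions on the contralateral side. No direction is given for Fas.

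Fadd, the adaptor that links death receptors to caspase 8, was read from 1 spot. Its processed signals were 5.11 on the contralateral, 7.19 on the ipsilateral and 13.5 on the control array, of which only the last was well above background. The control signal stood 1.26-fold above the dimmest detected spot of the contralateral array, which is not a lower limit either. No fold is given against the ipsilateral array, where that value was under 1. The measured log2 ratio was -1.25 with an error of 0.71 on the contralateral side, and it was 0.022 with normexp, a model-based background correction run with an offset of 50. It is a ratio to a signal at the background, so its size is not a measure of change.

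Casp8, the initiator caspase of the death receptor route, was read from 2 probes that differed. On probe 1 the log2 signals were 6.63 on the contralateral, 5.95 on the ipsilateral and 5.74 on the control array. On probe 2 they were 4.91, 5.42 and 5.23. The contralateral array was thus the highest on 1 probe and the lowest on the other. The contralateral ratio to the control group was 0.89 with an error of 0.21 on probe 1 and -0.32 with an error of 0.25 on probe 2, the latter positive with normexp, and that between the sides was 0.68 and -0.51, with a mean of 0.086 that was negative with normexp. The contralateral mean of 0.29, positive under every scaling tried, lies between probes of opposite sign and describes neither. Ipsilaterally the probes were close, at 0.21 and 0.19, with a mean of 0.20 and an error of 0.23, and all of these were negative without scaling and with spike-in scaling.

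Casp9, the initiator caspase of the mitochondrial route, also had 2 probes. Probe 1 had log2 signals of 6.14 on the contralateral, 6.46 on the ipsilateral and 6.06 on the control array, and probe 2 had 4.85, 4.36 and 4.65. Here it was the ipsilateral array that was highest on 1 probe and lowest on the other. On the contralateral side the ratios to the control group were 0.085, negative without scaling and with spike-in scaling, and 0.21, positive under every scaling tried, each within its error. Their mean of 0.15 turned to -0.0068 without scaling. The ipsilateral ratios were 0.40 with an error of 0.22, negative without scaling, and -0.29 with an error of 0.30, positive with normexp, and their mean of 0.057 was negative under no scaling, spike-in scaling, quantile normalization or the deposited table. Between the sides the ratio was -0.32 with an error of 0.22 on probe 1, positive without scaling, and 0.49 with an error of 0.30 on probe 2, negative with normexp. The mean of 0.088, negative with normexp, describes neither.

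Apaf1, the scaffold that assembles with cytochrome c and activates caspase 9, had 2 probes. Its log2 signals on probe 1 were 6.60 on the contralateral, 6.52 on the ipsilateral and 6.54 on the control array, and those on probe 2 were 6.78, 6.89 and 7.08. Probe 1 hardly differed between the arrays, and probe 2 was highest on the control array. The contralateral ratio was 0.057 on probe 1, negative without scaling and with spike-in scaling, and -0.30 with an error of 0.21 on probe 2, negative under every scaling tried. The mean contralateral ratio was -0.12 and the ipsilateral one -0.10, each with an error of 0.21, and the ipsilateral one was positive with normexp. Between the sides it was -0.019, positive without scaling and with spike-in scaling.

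Xiap, which binds and blocks caspases, was the detected gene with the lowest ipsilateral ratio of the 7. Probe 1 had log2 signals of 5.50 on the contralateral, 5.42 on the ipsilateral and 5.51 on the control array, and probe 2 had 6.90, 6.69 and 7.30. Probe 2 thus carried the difference, with the control array highest. The ipsilateral ratio to the control group was -0.093 on probe 1, positive with normexp, and -0.61 on probe 2. The contralateral ratio was -0.014 on probe 1, positive when scaled to the median, after quantile normalization and with normexp, and -0.40 on probe 2. Probe 2 was negative for both under every scaling tried. The mean was -0.35 with an error of 0.22 on the ipsilateral side and -0.21 with an error of 0.21 on the contralateral side. Both means were negative under every scaling tried, the ipsilateral one being -0.029 and within its error with normexp, and relative to the median of all genes the ipsilateral one lay between -0.39 and -0.12. The ratio of 0.15 between the sides was negative with normexp.

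Diablo, a mitochondrial protein that displaces Xiap from caspases once it is released, was level across the arrays. The means of its 2 spots were 11.51 on the contralateral, 11.55 on the ipsilateral and 11.50 on the control array. The spots ranged from 11.44 to 11.57 on the contralateral and from 11.46 to 11.55 on the control array, and these 2 arrays overlapped. Its ratios were 0.0024, 0.046 and -0.044 for contralateral over control, ipsilateral over control and contralateral over ipsilateral, with an error of 0.20 each, and all 3 changed sign without scaling and with spike-in scaling, the first 2 also with the deposited table, and the first after quantile normalization and with normexp too.

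Perp, a membrane protein of desmosomes and a target of p53, was the gene with the most spots among the 9. Its 10 spots had a mean log2 signal of 10.29 ± 0.022 (SD over spots) on the contralateral, 10.16 ± 0.065 on the ipsilateral and 9.96 ± 0.041 on the control array. They ranged from 10.25 to 10.32, from 10.04 to 10.22 and from 9.89 to 10.02, so the spots of the 3 arrays did not overlap. This spread is one within an array and not one between rats or hybridisations. The ratio to the control group was 0.32 with a scanner error of 0.20 on the contralateral side, or 1.25-fold, and was positive under every scaling tried. The ipsilateral ratio was 0.19 with an error of 0.20, and was negative without scaling and with spike-in scaling. Between the sides it was 0.13 with an error of 0.20, positive under every scaling tried. Relative to the median of all genes, Perp lay between 0.27 and 0.32 contralaterally and between 0.12 and 0.20 ipsilaterally.

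**Figure D2:**
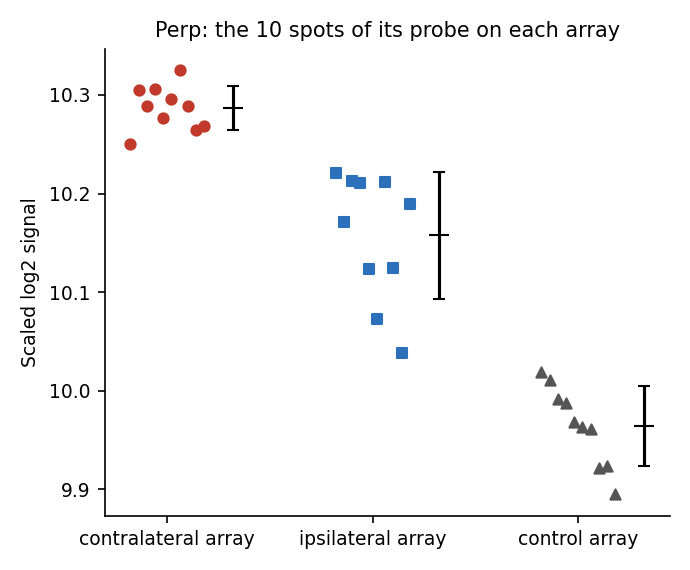
Scaled log2 signal (vertical axis) of the 10 spots of the Perp probe on each of the 3 arrays (horizontal axis), with the mean and SD of the spots beside them. The vertical axis does not start at 0, and the contralateral spots, from 10.25 to 10.32, lie above the ipsilateral ones, from 10.04 to 10.22, and these above the control ones, from 9.89 to 10.02; without scaling and with spike-in scaling, the ipsilateral mean lies below that of the control array.

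**Figure D3:**
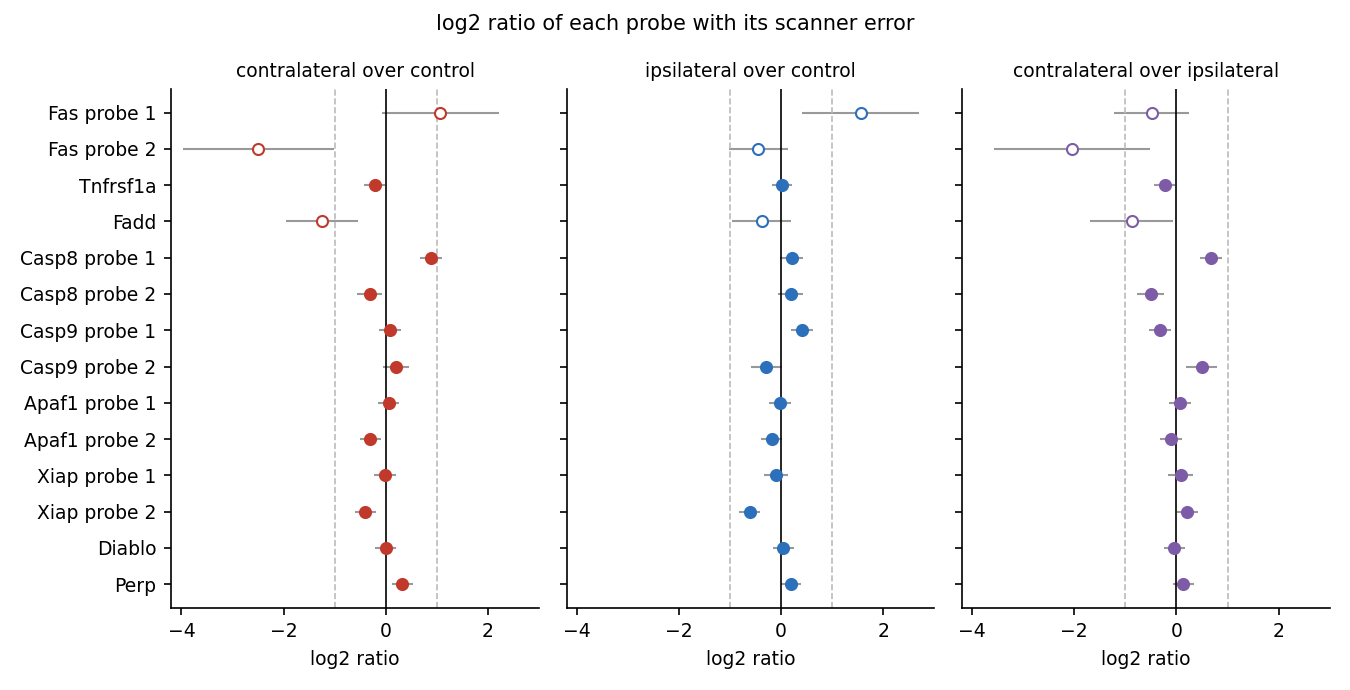
log2 ratio (horizontal axes) of each probe for the 3 comparisons, with bars for the scanner error and dashed lines at -1 and 1. Open symbols mark probes for which either array was not well above background; the probes beyond a dashed line are among these, and the 2 probes of Casp8 lie on opposite sides of 0 for contralateral over control, except with normexp.

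For the contralateral cortex against the control group, 1 of the 9 genes, Fadd, had a log2 ratio below -1, where 4.82% of all named genes did, and 0 had one above 1, where 3.15% did. The contralateral signal of Fadd was at the background. Among the 7 detected genes, 0 passed in either direction, where 1.46% of the detected named genes did. Tnfrsf1a, Casp8 and Perp had ratios larger than their scanner error, 3 of 7 genes, against 27.4% of the detected named genes. The Casp8 mean among these comes from probes of opposite sign. The genes beyond their error changed with the scaling. They were Tnfrsf1a, Apaf1 and Xiap, all lower, without scaling, and Tnfrsf1a and Xiap, lower, and Perp, higher, with spike-in scaling. They were Casp8 and Perp, both higher, when scaled to the median, after quantile normalization and with normexp, and the deposited table added Xiap, lower, to the 3 of the main scaling. The median ratio was 0.0024 over the 7 detected genes, with 4 above 0 and 3 below, and was negative under all other scalings but that to the median. Over all 9 it was -0.12, positive with normexp, and over all detected named genes 0.0078. The ratio of Perp was higher than those of 93.1% of these genes, and those of Tnfrsf1a and Xiap were higher than 15.4% and 15.7%. The central 95% of the detected genes lay between -0.63 and 0.58, and all 7 lay within it.

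For the ipsilateral cortex against the control group, 0 of the 9 genes passed upwards, where 8.95% of all named genes did, and 0 passed downwards, where 2.04% did. None of the 7 detected genes passed, where 2.11% of detected named genes did. Xiap alone had a ratio larger than its scanner error, 1 of 7, against 30.3%. This too changed with the scaling: 7 of 7 genes were beyond their error and lower without scaling, and Tnfrsf1a, Apaf1 and Xiap were with spike-in scaling. When scaled to the median Perp joined Xiap as higher, and with normexp only Casp8 and Perp were beyond, both higher. The median was 0.046 over the 7 detected genes and also over all 9, and 0.015 over all detected genes. The median of the 7 was negative under no scaling, spike-in scaling or the deposited table, and that of the 9 after quantile normalization as well. Xiap lay at the low end, with a ratio higher than 6.40% of the detected genes, and Casp8 and Perp lay above 82.0% and 81.4%, although both were negative without scaling and with spike-in scaling.

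Between the 2 sides of the MCAO rats, 0 of the 9 genes had a log2 ratio above 1, where 1.30% of all named genes did, and 1 gene, Fas, had one below -1, where 9.91% did. Neither Fas probe was well above background on these 2 arrays, so this is a count of a ratio at the background and no direction. Of the 7 detected genes 0 passed, where 1.18% of the detected named genes did. Only Tnfrsf1a had a ratio larger than its scanner error, 1 of 7, against 17.2%. Without scaling the other 6 genes were beyond their error instead, all positive, and with spike-in scaling Casp8, Xiap and Perp were, also positive. After quantile normalization Casp9 and Xiap, positive, joined Tnfrsf1a. The median was 0.086 over the 7 detected genes, negative with normexp, and -0.019 over all 9, positive without scaling and with spike-in scaling. The ipsilateral array was the dimmest before scaling, and after it the negative control spots of this array stood 0.52 above those of the control array in median log2 ratio, and for contralateral over ipsilateral that median was -0.46.

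**Figure D4:**
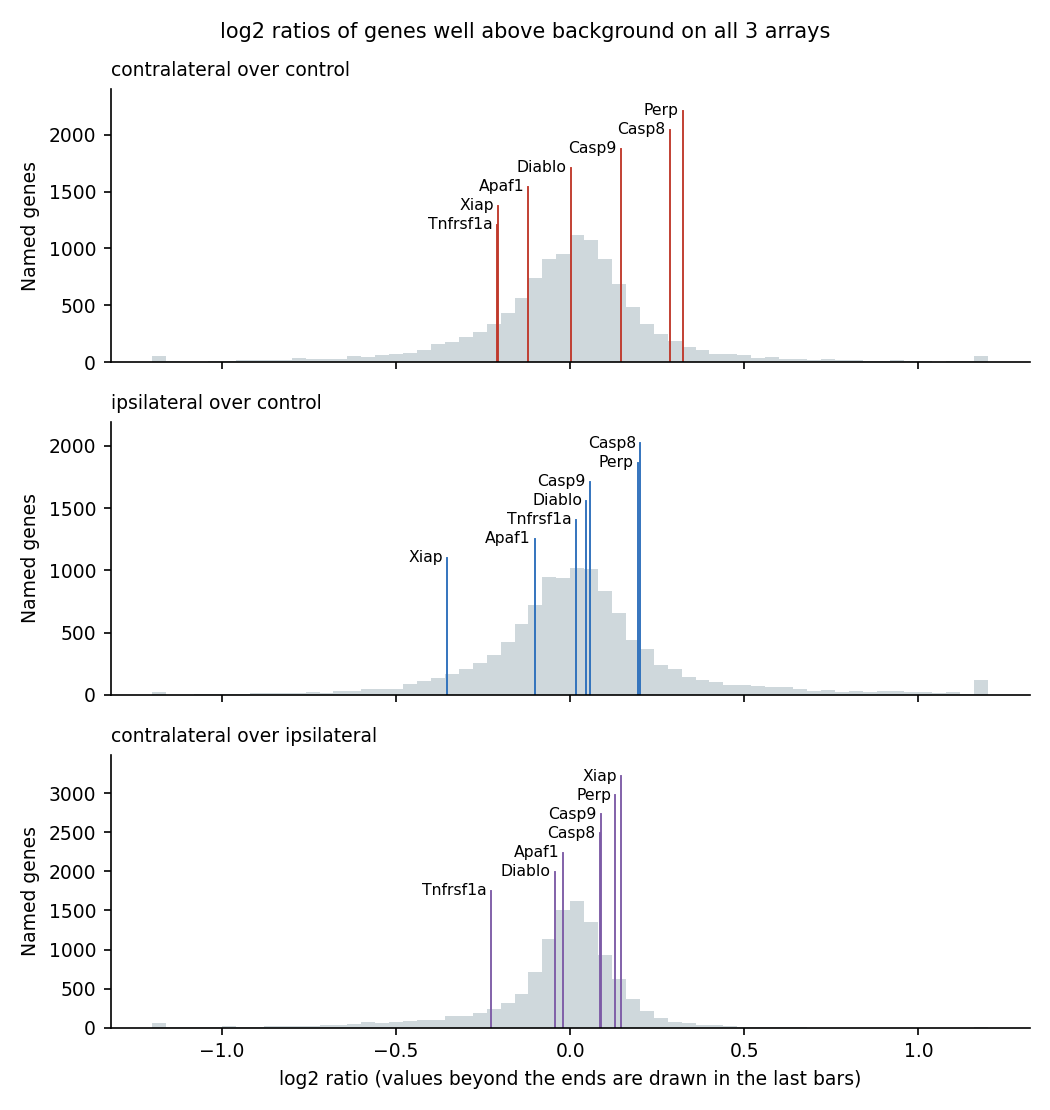
Number of named genes (vertical axes) by log2 ratio (horizontal axis) for the 11250 genes detected with every probe on all 3 arrays, with lines at the 7 detected caspase and death receptor pathway genes. Perp lies at the upper side for contralateral over control, at 0.32, and Xiap lies at the lower side for ipsilateral over control, at -0.35.

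Among all named genes past the threshold, those above 1 made up 39.5% for contralateral over control, 81.4% for ipsilateral over control and 11.6% for contralateral over ipsilateral. Among the detected genes past it they made up 54.9%, 79.7% and 14.3%, and 31.1%, 9.41% and 63.8% without scaling. The shares of all named genes depended on the scaling too. They were 28.4%, 41.1% and 28.8% without scaling, and 33.0%, 67.0% and 17.4% with spike-in scaling. After quantile normalization 609 genes lay above 1 and 654 below -1 for contralateral over control, 822 and 728 for ipsilateral over control, and 644 and 788 for contralateral over ipsilateral. With normexp it was 30 and 23, 63 and 10, and 3 and 17.

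In the plane of both ratios to the control group, Xiap lay farthest from 0 of the 7 detected genes of the list of 9 in the main scaling. Its distance was 0.41. This rank changed with the processing. Casp8 and Perp lay farther when scaled to the median, and Casp8, Perp, Casp9 and Tnfrsf1a did with normexp. With 50 added to the signal Perp lay farther, and with the brightest probe of each gene Casp8 did. In the main scaling, the named gene closest to Xiap in that plane was Acadsb, an enzyme of branched-chain acyl-CoA breakdown, at a distance of 0.0075. Next were Xrcc3, a protein of recombination repair, at 0.0097, and C14h4orf19 at 0.012. Of 11249 other detected genes, 293 lay within 0.1 of Xiap.

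The rest of the pathway was described by 10 lists with 74 genes, of which 67 were found on the array by name and 56 were detected with every probe on all 3 arrays. Of these 56, 0 had a contralateral ratio to the control group beyond 1, where 1.46% of detected named genes did, and the median was -0.027, with 26 above 0 and 30 below, and was positive when scaled to the median and with normexp. For ipsilateral over control 1 gene, Lta, was above 1 and 0 were below -1, where 2.11% of detected named genes were beyond 1, with a median of 0.015, negative under no scaling, spike-in scaling or the deposited table. Between the sides 0 genes passed, where 1.18% did, with a median of 0.0067, negative with normexp. Counting all 67 genes, 3 were above 1 for contralateral over control, where 3.15% of all named genes were, 4 for ipsilateral over control, where 8.95% were, and 1 was below -1 between the sides, where 9.91% were. The contralateral 3 were Tnfsf15 and Casp14, which were not well above background on any array, and Cdkn1a, an inhibitor of the cell cycle and a p53 target. The 2 probes of Cdkn1a were not both detected throughout, so that its mean ratio is not given as a size. At least 1 of them was detected on each of the 3 arrays. In the main scaling the lower of the 2 probe ratios to the control group was 1.275 contralaterally and 1.414 ipsilaterally. Cdkn1a was above 1 on the ipsilateral side as well, and on neither side with normexp. These 3 are named here after their values were seen.

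Among the ligands, Lta, or lymphotoxin alpha, stood apart. Its log2 signals were 5.36 on the contralateral, 5.92 on the ipsilateral and 4.82 on the control array, from 1 spot. Both arrays of the MCAO rats were above the control array. Relative to the control group the contralateral ratio was 0.54 and the ipsilateral ratio 1.10, each with an error of 0.25 and positive under every scaling tried. The ipsilateral one was beyond 1 in the main scaling and not without scaling, at 0.57, with spike-in scaling, at 0.86, or with normexp, at 0.78. Faslg, the ligand of Fas, had the lowest contralateral ratio of the 3 detected ligands, -0.14 with an error of 0.24. Its 2 probes had opposite signs there, at -0.39 and 0.12, so that this mean describes neither. The median of the 3 was 0.041, negative under no scaling, spike-in scaling, quantile normalization or the deposited table, and the ipsilateral one was 0.086, negative without scaling and with spike-in scaling. Tnf, Tnfsf10 and Tnfsf15 were not detected with every probe on all arrays.

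The list drawn as other death receptors holds receptors of the tumour necrosis factor receptor family and is not limited to death receptors. All 6 of its genes that were found by name were detected. Their median was 0.067 on the contralateral side, negative without scaling and with spike-in scaling, with Ngfr, the low-affinity neurotrophin receptor, highest at 0.39 and Tnfrsf12a lowest at -0.080, errors 0.20 and 0.21. Ipsilaterally 6 of 6 were above 0, where 53.4% of the detected genes were, and 0 of 6 without scaling and 3 of 6 with spike-in scaling. The median of 0.29 was negative without scaling. Between the sides the median was -0.21, positive without scaling. Relative to the median of all genes, the ipsilateral median of the list was 0.27 in the main scaling and 0.15 after quantile normalization.

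Of the adaptors and inhibitors at the receptors, the 8 detected genes had a contralateral median of 0.0037 and an ipsilateral one of 0.0076, both negative under no scaling, spike-in scaling or the deposited table. Cradd was not detected throughout. Faim2, an inhibitor of Fas signalling in neurons, was highest on the contralateral side at 0.19 and positive under every scaling tried, and Faim was lowest at -0.077 and negative under every one, each with an error of 0.20. Both values were within their error, whereas the ipsilateral ratio of Faim was -0.23 with an error of 0.20, negative under every scaling tried.

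Of the 6 other detected caspases, 5 lay below 0 and 1 above on both sides, where 51.8% of the detected genes were above 0 contralaterally and 53.4% ipsilaterally. With normexp 3 of 6 were above 0 contralaterally and 4 of 6 ipsilaterally, and 0 of 6 were on either side without scaling. The contralateral median was -0.17, and -0.011 with normexp, and the ipsilateral one was -0.22 and turned positive with normexp. Casp6, an executioner caspase, was lowest on the contralateral side at -0.40 with an error of 0.21, from log2 signals of 5.95 on the contralateral, 5.94 on the ipsilateral and 6.36 on the control array. Its ipsilateral ratio was -0.41, positive with normexp. Casp4, an inflammatory caspase, was highest at 0.11 with an error of 0.20, and negative without scaling. Casp2 and Casp14 were not detected with every probe on all arrays.

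The mitochondrial step, with Bid not detected throughout, gave a contralateral median of 0.049 and an ipsilateral one of 0.083 over 4 detected genes, both negative without scaling and with spike-in scaling. Aifm1, a flavoprotein released from mitochondria, was highest at 0.12 and negative without scaling, and Htra2, a protease that also binds Xiap, lowest at -0.069. The 5 detected relatives of Xiap had medians of 0.0037 and 0.038, both negative under no scaling, spike-in scaling or the deposited table, the latter also after quantile normalization. Birc6 was highest at 0.13, negative without scaling, and Birc7 lowest at -0.20, positive with normexp. The 4 genes of nuclear breakdown had medians of -0.055 and -0.19, negative under every scaling tried. Parp1, a repair enzyme that caspases cleave, was highest at 0.026, negative under no scaling, spike-in scaling or the deposited table, and Dffb, the nuclease of DNA fragmentation, was lowest at -0.25 with an error of 0.23. Ripk3, the kinase of necroptosis, was the only detected gene of its list, at -0.055 on the contralateral side, positive with normexp, and 0.035 on the ipsilateral side, negative under no scaling, spike-in scaling or the deposited table. Zbp1 was not detected throughout.

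For p53 and its targets, 13 detected genes had a median of 0.070 on the contralateral side, negative without scaling and with spike-in scaling, with 8 above 0 and 5 below, and an ipsilateral one of 0.014, negative under no scaling, spike-in scaling, quantile normalization or the deposited table. Cdkn1a and Pmaip1 were not detected throughout. Phlda3, an inhibitor of Akt signalling, was highest at 0.44 with an error of 0.23, positive under every scaling tried. Pidd1, a scaffold that activates caspase 2, was lowest at -0.20 with an error of 0.21. Of the relatives of Perp and the desmosome genes, 6 of 6 were below 0 for contralateral over control, where 51.8% of the detected genes were above 0. When scaled to the median 1 of 6 was above 0, and with normexp 2 of 6 were. The median of these genes, -0.13, was negative under every scaling tried. Pmp22, Jup and Pkp2 were well within their errors, at -0.025, -0.038 and -0.044, and the last 2 are named after their values were seen. Emp3 was lowest of them at -0.30 with an error of 0.20, and Pmp22 highest, positive when scaled to the median and with normexp. The ipsilateral median of these 6 was -0.015, positive when scaled to the median and with normexp. Dsc2 was not detected throughout. Actb and Gapdh, abundant reference genes, had contralateral ratios of -0.18 and -0.12 and ipsilateral ones of -0.17 and -0.061, negative under every scaling tried.

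**Figure D5:**
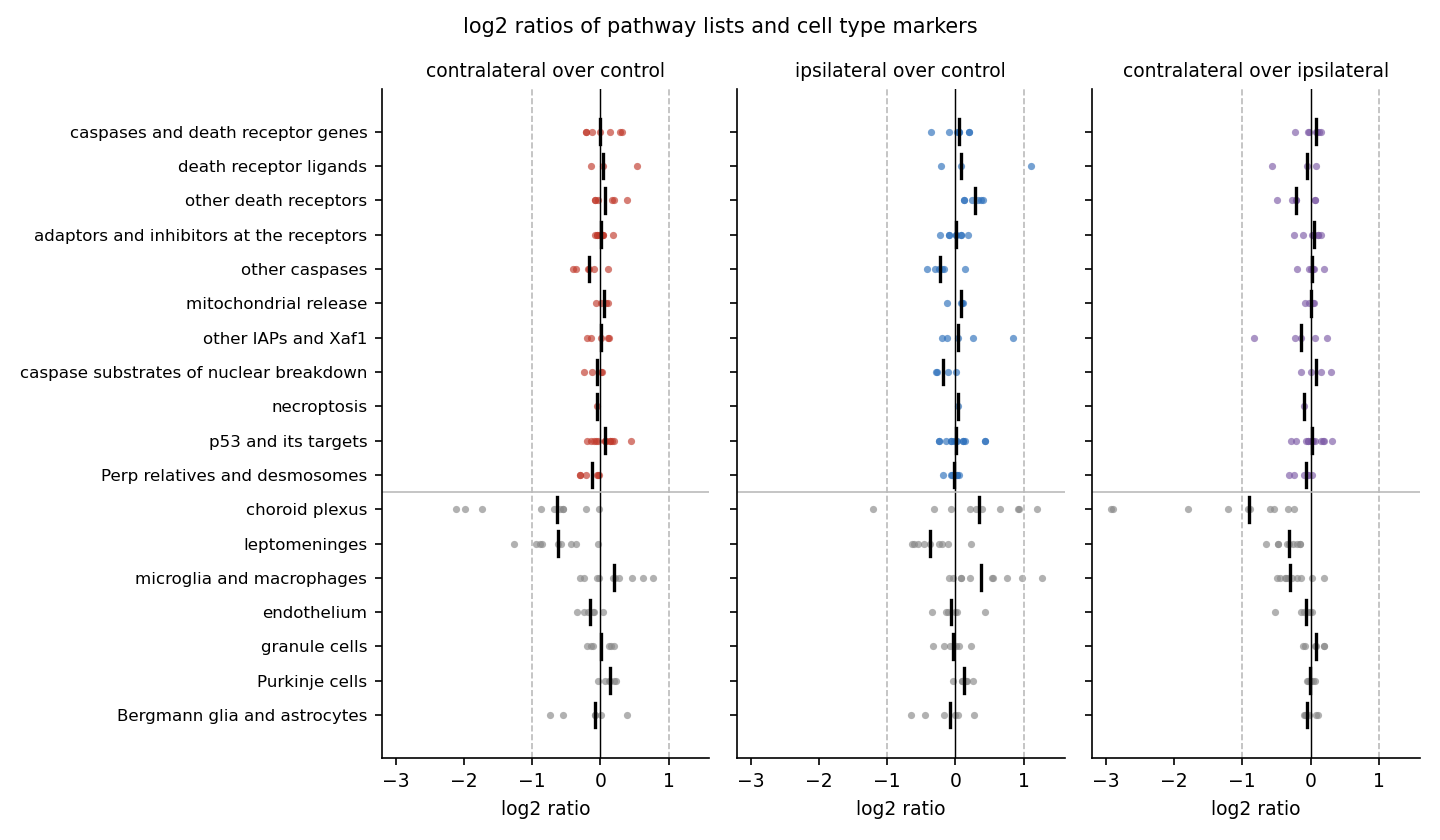
log2 ratio (horizontal axes) of each gene detected with every probe on all 3 arrays, by list (vertical axis), with pathway lists above the line in colour, cell type markers below it in grey, bars at the median of each list and dashed lines at -1 and 1. In the pathway lists 1 gene, Lta, lies beyond a dashed line, at 1.10 for ipsilateral over control; the medians of the choroid plexus and leptomeningeal markers are -0.64 and -0.61 for contralateral over control.

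Markers of 7 cell types or tissues were measured beside these genes, and their part in the values above was not tested. The tissue carried its defining markers: 6 of 6 granule cell, 6 of 6 Purkinje cell, and 6 of 6 Bergmann glia and astrocyte genes were detected on all 3 arrays. The summed linear signal of the granule cell genes was 38710 on the contralateral, 37410 on the ipsilateral and 38290 on the control array, with Neurod1 the brightest. Signals of different probes are not comparable amounts, so these sums serve only to set the arrays side by side. The list had a contralateral median ratio of 0.013, negative under no scaling, spike-in scaling, quantile normalization or the deposited table, and an ipsilateral one of -0.035, negative under every scaling tried. For Purkinje cells the sum was 178100, 176100 and 162700, brightest for Itpr1, with medians of 0.14 and 0.12, both negative without scaling and the ipsilateral one with spike-in scaling as well. The sums were 43750, 45430 and 55170 for Bergmann glia and astrocytes, brightest for Aqp4, with medians of -0.077 and -0.081, negative under every scaling tried.

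Of 13 choroid plexus genes, 10 were detected throughout, and Kl, Prlr and Cldn2 were not. Their sum was 12010 on the contralateral, 78810 on the ipsilateral and 35990 on the control array, brightest for Ttr, and the median ratio was -0.64 on the contralateral side, negative under every scaling tried, and 0.35 on the ipsilateral side, negative without scaling. The 9 leptomeningeal genes had sums of 8346, 11060 and 14390, brightest for Col1a2, with medians of -0.61 and -0.37, negative under every scaling tried. The 10 microglia and macrophage genes had sums of 13330, 16770 and 9757, brightest for C1qb, with a contralateral median of 0.19, positive under every scaling tried, and an ipsilateral one of 0.38, negative without scaling. The 6 endothelial genes had sums of 4254, 4449 and 4887, brightest for Cldn5, with medians of -0.15 and -0.058, negative under every scaling tried. The summed signal of the 9 caspase and death receptor pathway genes, brightest for Diablo, was 4989 on the contralateral, 5064 on the ipsilateral and 4836 on the control array. This order holds for the main scaling. Without scaling, all 7 detected genes were lower on the ipsilateral than on the control array.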

How the data were processed

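The authors labelled RNA with Cy3 for 1-colour Agilent arrays, and the deposited files give an intensity per spot from Agilent Feature Extraction 12.1.0.3, which subtracts background and does not scale between arrays. A deposited table gives this intensity times 1 factor per array, 1.12 for the contralateral, 1.45 for the ipsilateral and 1.04 for the control array, and the methods name a normalization to the control samples of each chip without saying if these factors are it. The log2 of the spot signals, without these factors, was shifted to a common 75th percentile over 58717 spots outside the controls. Outlier spots of any array, 759 in number, were removed, and means were taken over the spots of each probe and the probes of each gene. A symbol was found for 17622 of 39957 accessions in the RefSeq table of GRCr8, which also gave the promoter sequences. The threshold was a log2 ratio beyond 1, as in the methods of the study.

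With 1 array per group no test was made. The named genes were the 9 genes with each probe; the highest and lowest contralateral ratio of each pathway list among genes detected with every probe on all 3 arrays, and such genes beyond 1; the 3 genes nearest to the member farthest from 0; Actb and Gapdh; and the brightest and the undetected genes of each marker list. The members and lists were chosen with earlier results of these data known. Alternatives tried were to leave the arrays unscaled, to scale them by the median or by 8 spike-in probes, quantile normalization, normexp on median signals with an offset of 50, the deposited table, 50 added to the signal, the brightest probe, outlier spots kept, 2 filters on dim probes and a 1.5-fold threshold. Averaging and counting were tested on simulated data. Tnfrsf10b, Naip6, Xaf1, Mlkl, Sesn1, Dsp and Dsg2 were not analysed here. Versions were Python 3.11.15, numpy 2.4.6, pandas 2.3.3, matplotlib 3.10.9, R 4.3.3 and limma 3.58.1.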

Additional observations from a re-analysis of the deposited data

How the results depend on the processing

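With 1 array per group, no replicate could be left out, and for genes at the background the ratio depends on how the background is treated. For the contralateral cortex against the control group, 1 of the 9 genes passed the threshold, and 0 did after quantile normalization, with normexp, with 50 added to the signal and among genes detected with every probe on all 3 arrays, while 2 did with the brightest probe and 2 at 1.5-fold. Between the sides it was 1, against 0 without scaling, after quantile normalization, with normexp, with 50 added and among detected genes, and 2 at 1.5-fold. On the ipsilateral side it was 0 under every alternative tried. Of all named genes, 1327 passed on the contralateral side, 1831 on the ipsilateral side and 1867 between the sides. In the same order, these counts were 53, 73 and 20 with normexp, 72, 77 and 38 with 50 added, 164, 237 and 133 among genes detected with every probe on all 3 arrays, 730, 948 and 907 with a probe detected on at least 1 array, and 2628, 3304 and 3018 at 1.5-fold. The filters count fewer genes and the lower threshold counts more by construction; for the other changes the cause was not tested. The contralateral ratio of Fadd reversed to 0.022 with normexp, for which the cause was not tested. Of the other values of single genes and their medians, 231 moved by less than the scanner error and 38 by more, a median being held to the median error of the 9 genes, and of the 38, 16 did so in unscaled data, 7 under spike-in scaling and 7 with the brightest probe. With that probe alone, the contralateral ratio of Casp8 was 0.89. The counts of 231 and 38 are not a measure of how stable the genes were. No scaling, the median, the spike-in probes and the deposited table shift every gene of a comparison by the same amount. Keeping outlier spots left the values of the 9 genes as they were.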

Other observations

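Of the pathway genes read from 1 probe on at least 8 spots, chosen after their values were seen, Emp3, a relative of Perp, had a mean log2 signal of 9.01 ± 0.045 (SD over 10 spots) on the contralateral, 9.33 ± 0.067 on the ipsilateral and 9.31 ± 0.062 on the control array. Its contralateral spots, from 8.95 to 9.07, lay below those of the ipsilateral array, from 9.19 to 9.42, and of the control array, from 9.22 to 9.40, which overlapped. The contralateral ratio of Emp3 to the control group was negative under every scaling tried, and that between the sides was positive without scaling. The 8 spots of Emp1, another relative, ranged from 6.67 to 6.89 on the contralateral, from 6.87 to 7.17 on the ipsilateral and from 6.94 to 7.17 on the control array. The 10 spots of Tnfrsf12a and the 9 spots of Parp1 overlapped between all 3 arrays. Birc3, a ubiquitin ligase at the receptors of tumour necrosis factor that is also chosen after its values were seen, had log2 signals of 3.90 on the contralateral, 4.73 on the ipsilateral and 3.89 on the control array, from 1 spot. Its ipsilateral ratio to the control group was 0.84 with an error of 0.32, and 0.30 without scaling, within that error. It is a dim spot, and the negative control spots had a median of 0.52 in the same comparison.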
